A study of Mus musculus with 67 samples.

Results

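The zinc-finger genes numbered Zfp600 to Zfp999 were followed through preimplantation development in light-exposed and control mouse embryos. Members were the rows of the deposited expression table whose symbol is exactly Zfp and a number in that range, which gave 166 of 26414 genes, from Zfp600 to Zfp995. RNA was measured in 67 libraries made by SMART-seq2, a method that copies whole polyA transcripts from very small samples. All embryos were C57BL/6, fertilised in vitro with eggs of 6-week-old females and sperm of 10-week-old males. Light of 5000 lx was given for 6 h to 2-cell embryos of the light group, which then went back to the dark, and the control group stayed in the dark. The control group held 7 libraries of 2-cell, 6 of 4-cell, 4 of 8-cell, 13 of morula and 3 of blastocyst embryos, and the light group held 6, 8, 8, 6 and 6 libraries of the same stages. The labels number an embryo for each library, while the study describes single cells picked from dissociated embryos. It is not stated whether libraries of a group came from separate embryos, so p-values measure only the spread between these libraries.

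Zinc-finger proteins of the C2H2 type hold short loops around a zinc ion, and a row of such fingers reads a DNA sequence. Many mouse members carry a KRAB domain at their start, which recruits the corepressor KAP1 (gene Trim28), the histone methyltransferase Setdb1 and heterochromatin proteins. KRAB zinc-finger genes lie in clusters of near copies, and several are known for silencing endogenous retroviruses in the early embryo. Members without KRAB are a mixed group of activators, repressors and proteins with other roles.

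Of the 166 members, 163 had a coding sequence in GENCODE M21 (GRCm38) and 3 (Zfp640, Zfp783 and Zfp939) were pseudogenes. A KRAB A-box pattern was found in 89 members and not in 74. A member without a match may still hold a KRAB box that the pattern missed. From here on, KRAB members and members without KRAB are those with and without a match. The number of fingers found by pattern ran from 0 to 33 with a median of 11. It was 11 in the median KRAB member and 8.5 in the median member without KRAB. Zfp619 had the most fingers, and 7 members, among them Zfp703, Zfp750 and Zfp957, had none that met the pattern. A gap of under 500 kb joined 83 members into 11 genomic clusters of at least 4. The KRAB pattern matched 65 of the 81 clustered members with a coding sequence, against 24 of 82 outside clusters. The largest cluster held 17 members, all on chromosome 4 between 145510759 and 147848366 (GRCm38), and 14 lay on chromosome 17 between 21383748 and 22867134. Near-identical copies limit what can be read from these genes. At least one 50-base stretch of coding sequence was shared with another member by 57 members. At least 50% of theirs was shared by 12, led by Zfp986 with 92.6%. Untranslated parts and genes outside the members were not compared. Exons of 46 members overlapped another gene, and how the counting treated strand is not given in the sources used here.

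The start sites of 5 genes of the chromosome 4 cluster also resembled each other. The 120 bases before the RefSeq start of these 5 (GRCm38.p6, strand of the gene) are shown. A 12-base word that all of them contain, TATTGGGCGGGT, is in capitals. It is the longest stretch that these 5 share and was taken after the sequences were seen, and it contains GGGCGG and, on the other strand, CCAAT.
Zfp600 (chr4:146156707-146156826, plus strand): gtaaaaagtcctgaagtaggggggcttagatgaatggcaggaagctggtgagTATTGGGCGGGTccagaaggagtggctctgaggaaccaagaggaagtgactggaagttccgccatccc
Zfp979 (chr4:147642509-147642628, minus strand): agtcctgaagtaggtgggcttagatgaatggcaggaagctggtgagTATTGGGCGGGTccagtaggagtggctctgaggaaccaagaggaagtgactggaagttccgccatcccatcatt
Zfp980 (chr4:145670577-145670696, plus strand): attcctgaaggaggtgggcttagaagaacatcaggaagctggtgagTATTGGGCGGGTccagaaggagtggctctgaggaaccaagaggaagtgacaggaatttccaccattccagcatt
Zfp981 (chr4:146514800-146514919, plus strand): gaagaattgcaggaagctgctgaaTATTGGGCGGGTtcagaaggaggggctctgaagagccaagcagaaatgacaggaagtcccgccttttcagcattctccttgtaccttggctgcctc
Zfp985 (chr4:147553157-147553276, plus strand): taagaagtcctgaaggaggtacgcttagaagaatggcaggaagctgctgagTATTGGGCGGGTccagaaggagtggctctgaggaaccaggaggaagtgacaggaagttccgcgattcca
Zfp936 and Zfp975, genes of a cluster of 8 members on chromosome 7 that were lower in light blastocysts in the main test and in few of the alternatives, are shown for contrast with CCAAT in capitals.
Zfp936 (chr7:43177470-43177589, plus strand): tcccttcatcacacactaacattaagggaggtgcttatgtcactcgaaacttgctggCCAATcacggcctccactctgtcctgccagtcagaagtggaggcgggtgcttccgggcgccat
Zfp975 (chr7:42692719-42692838, minus strand): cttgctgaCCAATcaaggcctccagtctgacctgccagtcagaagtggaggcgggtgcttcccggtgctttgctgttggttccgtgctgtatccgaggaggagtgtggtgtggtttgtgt

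Among the chromosome 4 genes shown, identity over the 250 bases before the start was 69.5% to 94.1% in 10 pairs, highest between Zfp600 and Zfp979. It was 60.9% between Zfp936 and Zfp975 and 44.4% to 51.5% between genes of the 2 clusters. In the 250 bases before the start, on both strands, TATTGGGCGGGT occurred in 12 of 27025 genes with a RefSeq promoter (0.0444%). Of these, 10 were among the 141 members that matched one, 8 of them among the 11 matched genes of the chromosome 4 cluster and 2, Zfp947 and Zfp994, in the chromosome 17 cluster. The chromosome 4 genes shown, from which the word was taken, are among these 8 by construction. The others of the 8 were Zfp982, Zfp984 and Zfp988. CCAAT stood in 61.7% of members and 37.5% of all genes, and GGGCGG in 44.7% and 35.4%. These are matches of letters and were not tested as binding sites.

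Total reads per library lay between 836015 and 8551673 with a median of 4632052, and 54.0% to 89.3% of them fell on Gm42418 and CT010467.1. Values, as deposited, are reads after scaling by each library's size factor, without division by transcript length. Members received 1554 to 20767 reads per library, which is a small basis for single genes: 49 members had fewer than 300 reads in all 67 libraries together. The ratio of Gm42418 to CT010467.1 was 1.43 to 1.77 in all light libraries before the blastocyst stage and 1.61 to 4.55 in the controls of these stages. Within a stage, light and control did not overlap in 2-cell embryos (1.58 to 1.77 against 2.34 to 4.03), 8-cell embryos (1.52 to 1.71 against 2.01 to 2.34) and morulae (1.49 to 1.67 against 2.34 to 4.14). The ranges overlapped at the 4-cell and blastocyst stages. Where they did not, this library difference and light cannot be told apart. For the labelled stages, Cdx2, which defines the trophectoderm, was above 1 in none of the 7 control 2-cell libraries and in all 9 blastocyst libraries. The whole trophectoderm list summed to 59.7 to 195 in control 2-cell, 96.8 to 175 in light 2-cell and 171 to 1652 in control morula libraries. In blastocysts the sums were 472 to 6914 in control and 2729 to 7042 in light, so the lowest control blastocyst library lay within the range of control morulae. Of 5 cumulus cell markers, Inha was at 0 throughout, but the list as a whole was not silent. Its sum was 7.29 to 22.2 in control and 0.413 to 68.0 in light 2-cell libraries, with a median of 1.12 over all 67 libraries. The 6 sperm genes did not exceed a value of 10.4 in any library in sum.

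Most members were transcribed. A value above 1 in at least 3 libraries was found for 164 of 166, all but Zfp764 and Zfp811. A control library held a median of 112 members above 1 in 2-cell, 100.5 in 4-cell and 84.5 in 8-cell embryos, 81 in morulae and 117 in blastocysts. The medians of the light group were 126, 108.5, 94.5, 103 and 98. With each library thinned to 318181 reads outside the 2 most abundant genes, the median number of members with a read was 99, 90.5, 82.5, 77 and 111 in control and 114, 99.5, 92, 99.5 and 103 in light. Control 4-cell libraries 1 and 2 stood apart with 65 and 57 members, while the other 4 held 99 to 108; their ratios of Gm42418 to CT010467.1 were 4.55 and 4.35 against 1.61 to 1.98.

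**Figure D1:**
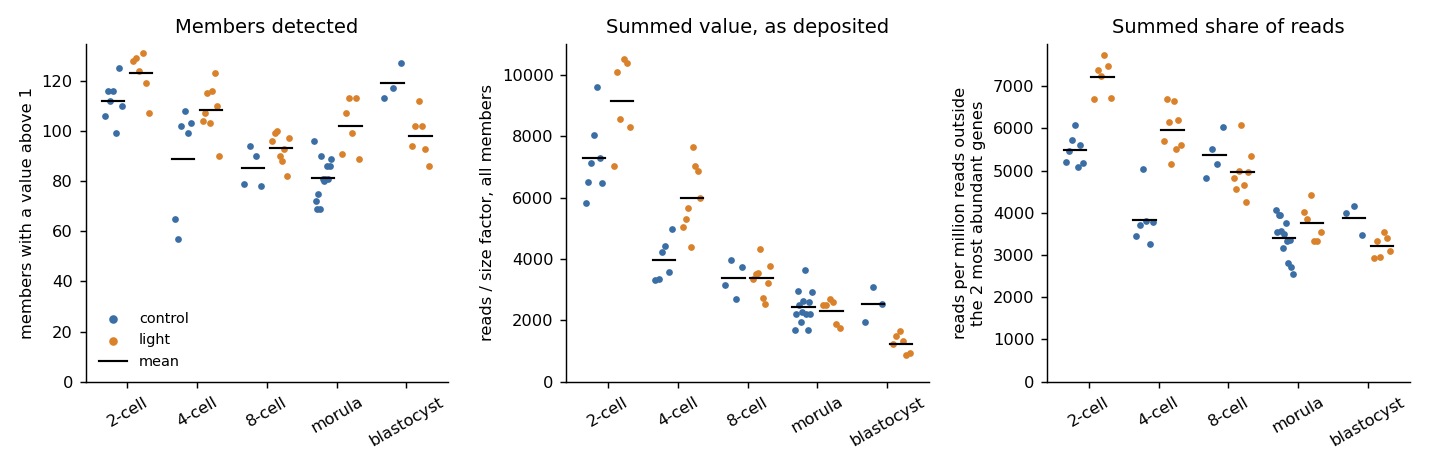
Members with a value above 1 (left), their summed value as deposited (middle, reads after size factor scaling) and their CPM among the reads outside the 2 most abundant genes (right), by stage, with 1 point per library, control in blue, light in orange and the mean as a bar. The summed value as deposited was highest at the 2-cell stage, and on the right the 6 light 2-cell libraries, at 6698 to 7740, lay above the 7 control libraries, at 5090 to 6084.

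The summed value of the members, as deposited, was highest at the 2-cell stage. It was 5841 to 9613 in control and 7022 to 10529 in light 2-cell libraries, against 1682 to 3650 in control morulae. As CPM among the reads outside the 2 most abundant genes, the members took 5090 to 6084 in control and 6698 to 7740 in light 2-cell libraries, ranges that did not overlap. The corresponding ranges were 3259 to 5043 and 5161 to 6685 at the 4-cell stage, which also did not overlap. In 8-cell embryos they were 4814 to 6043 and 4265 to 6076, so that on this scale the control 8-cell libraries, with a mean of 5381, lay close to the control 2-cell libraries, with 5479. The ranges of morulae also overlapped. In blastocysts they were 3475 to 4158 in control and 2934 to 3536 in light.

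A few genes took a large share of this RNA. The 10 members with the highest mean held 52.7% of the summed value in control 2-cell embryos, 60.4% at the 8-cell stage and 38.0% in blastocysts. Zfp706, a small protein linked in embryonic stem cells to the exit from self-renewal, had the highest value per kilobase of exon in every group of both treatments. Its value per kilobase was 237 ± 93.3 (SD, n = 7) in control 2-cell, 71.4 ± 63.2 (n = 6) in 4-cell and 90.0 ± 18.1 (n = 4) in 8-cell embryos, 140 ± 53.9 (n = 13) in morulae and 55.4 ± 28.5 (n = 3) in blastocysts. The place at the top is not firm, since Zfp957 (189 ± 49.4, n = 7) at the 2-cell stage and Zfp936 (70.9 ± 45.6, n = 6) at the 4-cell stage lay within 1 SD of it. Zfp622 followed Zfp706 at the 8-cell stage with 81.3 ± 21.8 per kilobase (n = 4), Zfp978 in morulae with 48.2 ± 30.6 (n = 13) and Zfp985 in blastocysts with 35.0 ± 19.6 (n = 3). Zfp985 lies in the chromosome 4 cluster, as does Zfp978, for which 62.9% of 50-base stretches were shared with other members.

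Of the 117 members with at least 300 reads, 58 had their highest group mean in 2-cell embryos of the control group, 18 in 4-cell and 6 in 8-cell embryos, 11 in morulae and 24 in blastocysts. In the light group the numbers were 76, 17, 6, 10 and 8. Both groups had the same stage for 74 members. These numbers rest on the scale: as CPM among the reads outside the 2 most abundant genes, 33 control members were highest at the 2-cell stage and 36 in blastocysts, and 50 and 27 light members.

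At each stage, light libraries were set against control libraries to ask how the exposure at the 2-cell stage affected the transcripts of that and later stages. A gene was called when its adjusted p (limma, Benjamini-Hochberg over all genes tested) was under 0.05 and its difference at least 2-fold. At the 2-cell stage 17 of 148 members tested were called, 11 higher and 6 lower in light. This is a share of 11.5%, near the 10.5% of all 18532 genes tested that were called, 5.53% higher and 4.96% lower. The median difference (log2 of value plus 1) was 0.50 for the members, 0.02 for the 167 tested of the genes Zfp1 to Zfp599, and 0.00 for all genes. The groups of 9 members did not overlap, or 6.08% of those tested, against 4.15% of all genes. Of KRAB members 5 of 79 were higher and none lower, and of those without KRAB 5 of 66 were higher and 6 lower. Without light library 12 the count was 11.

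**Figure D2:**
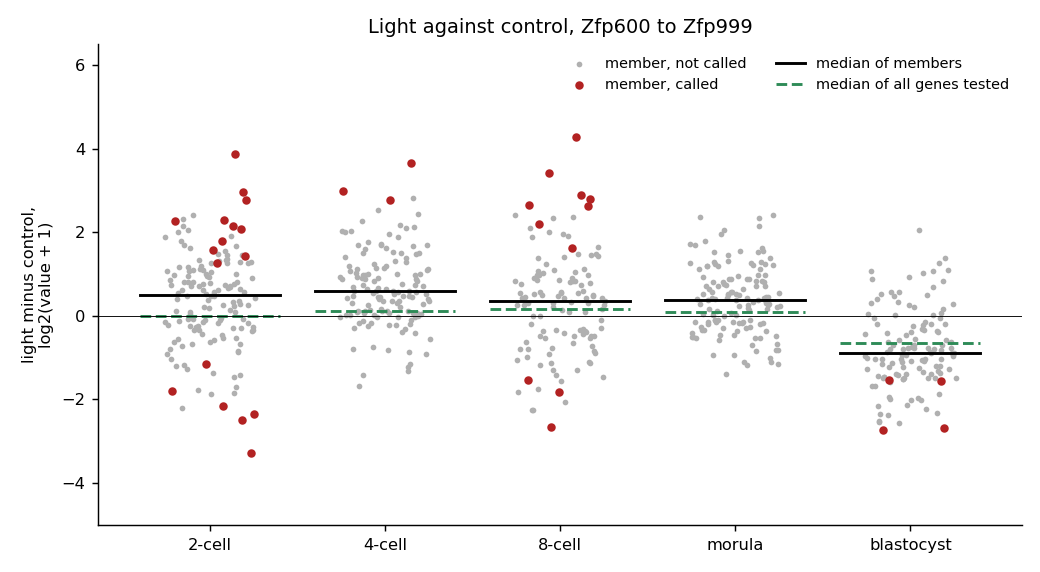
Difference between light and control of each member tested, as log2 of value plus 1 (vertical axis), by stage, with called members in red, the median of the members as a solid line and that of all genes tested as a dashed line. The median of the members lay above that of all genes in the first 4 stages and below it in blastocysts, at -0.89 against -0.64, and called members went both ways at the 2-cell and 8-cell stages only.

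Among the members higher in light 2-cell embryos, Zfp677, a KRAB gene of the chromosome 17 cluster (21383748 to 21399265, GRCm38), had the largest fitted difference. Its value was 0 to 9.37 with a median of 4.35 in the 7 control libraries and 27.2 to 113 with a median of 41.9 in the 6 light libraries. All light libraries were above all controls, with a log2 difference of 3.87 ± 0.75 (SE, adjusted p by limma 9.53e-04). The call held under all 5 alternative tests without the replicate block and without any 1 library.

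Zfp938, a KRAB gene of chromosome 10 with 174 reads in all, was at 0 in all 7 control libraries and at 0.567 to 26.8 in the 6 light libraries, with a median of 7.46. Against a floor of 3 reads over the control group it was at least 18.0-fold higher in light (adjusted p by limma 5.00e-03). Zfp936 (chromosome 7, 43114229 to 43192109), a KRAB gene, was at 17.5 to 289 in control, median 180, and at 306 to 930 in light, median 537. The groups did not overlap, and the log2 difference was 2.29 ± 0.45 (SE, adjusted p by limma 1.13e-03). Zfp791, on chromosome 8, was at 0 to 85.5 in control, median 19.8, and at 59.9 to 98.6 in light, median 86.3. Its groups overlapped, and its log2 difference of 2.76 ± 0.79 (SE, adjusted p by limma 0.0208) was no longer called by edgeR or DESeq2 or without the filter on low values.

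Zfp622, a factor of 60S ribosomal subunit maturation, was higher in light 2-cell and in light 4-cell embryos. At the 2-cell stage it was at 55.2 to 541 in control, median 199, and at 547 to 1260 in light, median 730. The ranges came close without overlap, with a log2 difference of 2.14 ± 0.40 (SE, adjusted p by limma 6.84e-04). Zfp978 of the chromosome 4 cluster was at 30.2 to 169 in control and 138 to 330 in light (log2 difference 1.26 ± 0.37, adjusted p by limma 0.0256). The remaining called members, Zfp668, Zfp959, Zfp939, Zfp623 and Zfp821, had log2 differences of 1.44 to 2.27 and are named for completeness after their values were seen; exons of Zfp668 overlap those of Zfp646.

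The members lower in light 2-cell embryos carry no KRAB pattern. Zfp608, a large protein related to the Nipbl partner Zfp609, was at 10.7 to 66.6 in control with a median of 31.3 and at 0 to 4.20 in light with a median of 3.61. Its groups did not overlap, and its log2 difference was -3.28 ± 0.72 (SE, adjusted p by limma 2.81e-03). Zfp703, a corepressor of the NET family, was at 83.4 to 183 in control, median 137, and at 11.7 to 60.1 in light, median 37.8. No light library reached the lowest control, and the log2 difference was -2.16 ± 0.43 (SE, adjusted p by limma 1.12e-03). Zfp652, a transcriptional repressor, was at 37.5 to 71.8 in control, median 56.1, and at 0 to 26.0 in light, median 16.6, again without overlap (log2 difference -2.36 ± 0.64, adjusted p by limma 0.0156). Exons of Zfp608, Zfp703 and Zfp652 overlap another gene in the annotation.

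Zfp957, the second member per kilobase in control 2-cell embryos, was at 422 to 808 there with a median of 652 and at 159 to 443 in light with a median of 272. The ranges overlapped slightly, and the log2 difference was -1.14 ± 0.28 (SE, adjusted p by limma 7.82e-03). Zfp704 was at 7.29 to 27.1 in control and at 0 to 13.3 in light, where 1 library, 10, lay far above the rest; its log2 difference of -2.50 ± 0.80 (adjusted p by limma 0.0403) was kept in only 4 of the 13 fits that left out a library. Zfp750, a regulator of epidermal differentiation, was the other gene lower in light (log2 difference -1.81 ± 0.50, adjusted p by limma 0.0165).

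**Figure D3:**
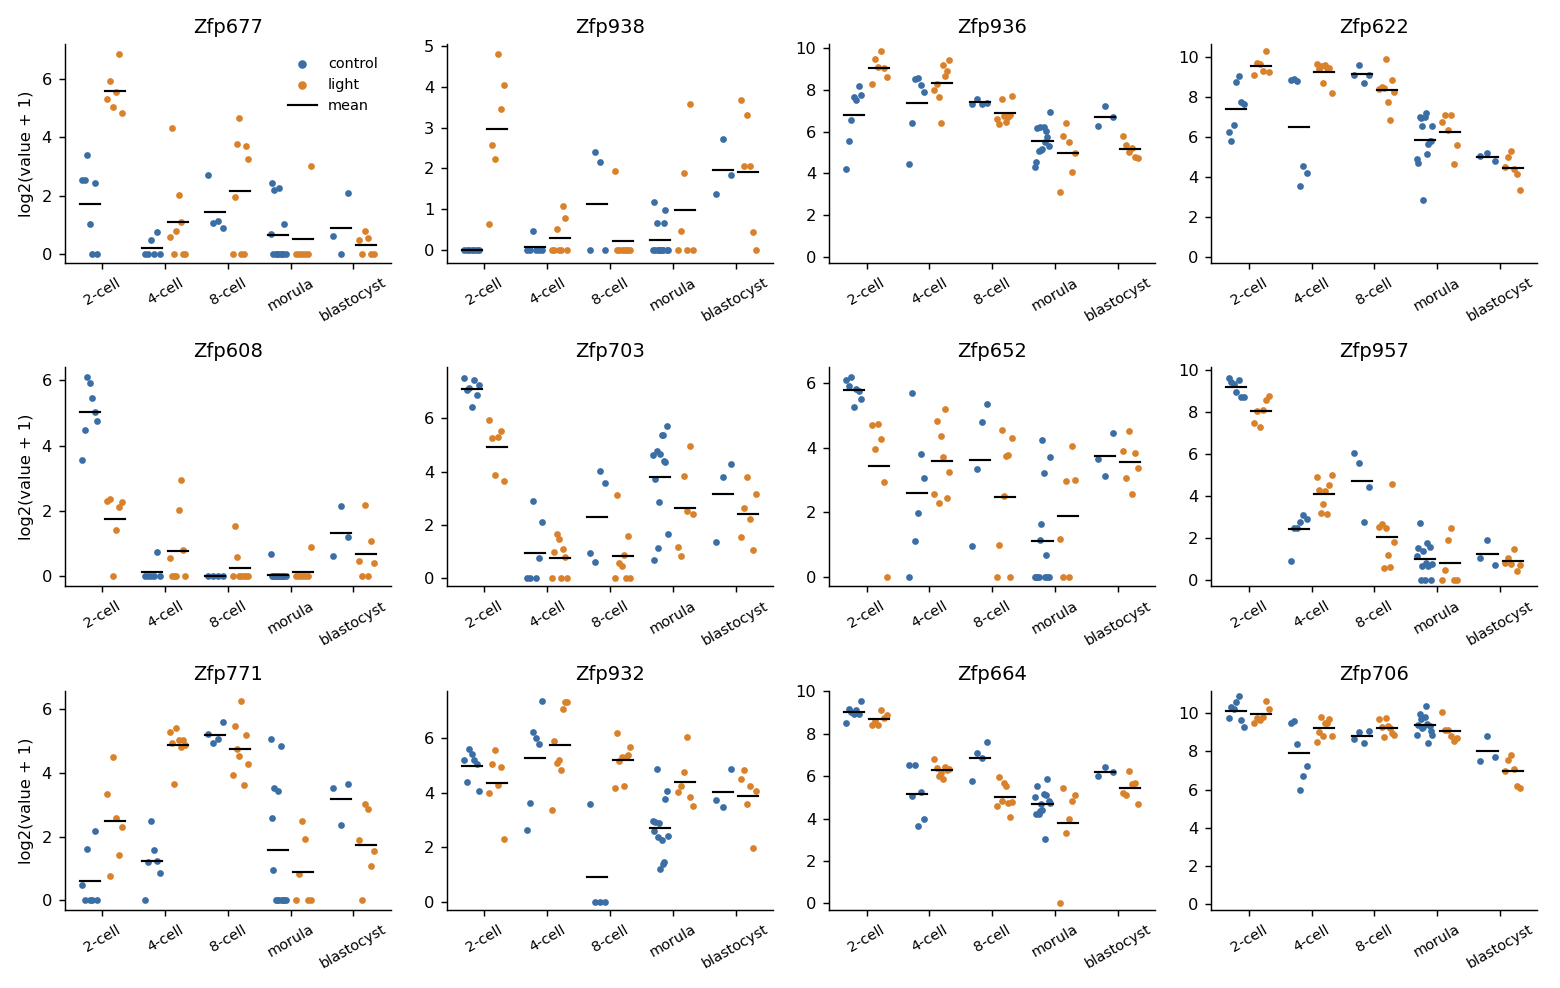
Values of 12 members in every library as log2 of value plus 1 (vertical axis), by stage, with control in blue, light in orange and the mean as a bar. Zfp677, Zfp936 and Zfp622 were higher and Zfp608, Zfp703 and Zfp652 lower in all light 2-cell libraries than in all controls, and Zfp932 was at 0 in 3 of 4 control 8-cell libraries.

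RNA inherited from the oocyte moved with the same contrast. Of 10 oocyte genes tested at the 2-cell stage, 4 were called lower in light (Bmp15, Oosp1, Ooep and Nlrp5) and none higher, and their summed value was 2717 to 5793 in control and 846 to 2341 in light, without overlap. Of the cumulus genes Tnfaip6 was called higher in light 2-cell embryos, and the cumulus sum was at most 68.0. The part of these differences in the members' result was not tested. None of 9 transient 2-cell genes was called, with sums of 351 to 813 in control and 146 to 1939 in light; 2 of the 9 had a difference above 0.

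The partners of KRAB zinc fingers were listed beside them. Of 23 genes, 4 were called higher in light 2-cell embryos, and 1 lower, against 5.53% and 4.96% of all genes tested. Trim28, which encodes KAP1 itself, was at 60.4 to 368 in control, median 202, and at 323 to 678 in light, median 506 (log2 difference 1.57 ± 0.37, adjusted p by limma 5.22e-03). Sumo2, whose product is attached to KAP1, was at 29.8 to 99.0 in control and 109 to 396 in light, without overlap (log2 difference 1.95 ± 0.39, adjusted p by limma 1.38e-03). Ehmt1 and Pphln1 were also higher. Chd3, a subunit of the NuRD complex that KAP1 recruits, was at 12.3 to 86.9 in control and 0 to 10.5 in light (log2 difference -3.05 ± 0.71, adjusted p by limma 4.98e-03). Setdb1, the methyltransferase, was not called at the 2-cell stage, with medians of 211 in control and 283 in light. At later stages none of the 23 was called in 4-cell embryos, Sumo2 was higher in light 8-cell embryos (log2 difference 1.04, adjusted p by limma 2.91e-03), and Trim28 was lower in light morulae (-1.43, adjusted p by limma 0.0117).

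At the 4-cell stage 3 of 136 members were called, all higher in light (2.21%, against 1.45% of 15010 genes, 1.12% higher). The median difference was 0.59 for members, 0.50 for Zfp1 to Zfp599 and 0.13 for all genes, and 109 of the 136 lay above 0. Without control libraries 1 and 2 the median of the members was 0.20 and that of all genes -0.07. With any 1 library left out the count was 1 to 4, with 1 without control library 4 or without light library 1, 5, 6, 9 or 11.

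Zfp771 (chromosome 7, 127244274 to 127254803) was at 0 to 4.56 in the 6 control 4-cell libraries with a median of 1.34, and at 11.6 to 41.3 in the 8 light libraries with a median of 30.7. All light libraries lay above all controls, the log2 difference was 3.66 ± 0.65 (SE, adjusted p by limma 0.0121), and the call held in the 5 alternative tests without the replicate block and without any 1 library. In control embryos Zfp771 was at 29.8 to 47.1 one stage later, at the 8-cell stage, with a log2 difference to the 4-cell stage of 3.98 ± 0.97 (adjusted p by limma 0.0164). It then fell in morulae of both groups.

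Zfp622 split the control 4-cell libraries: it was at 457 to 490 in libraries 1, 2 and 3 and at 10.8 to 22.5 in libraries 4, 5 and 6, against 294 to 809 in light. Its log2 difference was 2.78 ± 0.66 (adjusted p by limma 0.0350), and of the 5 alternative tests without the replicate block only median ratio scaling kept the call. Zfp706 divided the same libraries, at 331 to 773 in the first 3 and 62.6 to 150 in the others. Zfp709 was at 0 to 1.31 in control and, apart from library 13 at 0, at 6.08 to 33.9 in light (log2 difference 2.99 ± 0.78, adjusted p by limma 0.0480). That call was lost without most single libraries.

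At the 8-cell stage 11 of 119 members were called, 8 higher and 3 lower in light (9.24%, against 9.21% of 13861 genes, 5.91% higher and 3.3% lower). The groups of 5 members did not overlap, against 5.61% of all genes. The median difference was 0.34 for members and 0.16 for all genes, and 0.27 and 0.03 when libraries were scaled by the median ratio. The controls were 4 libraries only. The count was 7 without light library 7. Clustered members gave 5 higher and none lower of 60, and members outside clusters 3 higher and 3 lower of 59.

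Zfp932, a known repressor of endogenous retroviruses in which the pattern found no KRAB box, was at 11.1, 0, 0 and 0 in control 8-cell libraries 1 to 4. In the 8 light libraries it was at 17.1 to 72.2 with a median of 38.6. All light libraries were above all controls, with a log2 difference of 4.28 ± 0.70 (SE, adjusted p by limma 4.45e-04), and the call was kept in the 5 alternative tests run and without any 1 library. The same gene was at 5.11 to 163 in control 4-cell embryos and 1.31 to 28.1 in control morulae, so the low values stood in the control 8-cell libraries. Its control 4-cell to 8-cell difference was -4.37 ± 1.08 on the log2 scale (adjusted p by limma 0.0168), a call lost with median ratio scaling, with edgeR, and without control 4-cell library 6 or 8-cell library 3.

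Zfp970 and Zfp971, which lie in a cluster of 4 members on chromosome 2 with Zfp972 between them, were at 0 in all 4 control 8-cell libraries. Zfp970 was at 0 to 56.3 in light with a median of 11.0, at least 35.3-fold higher against a floor of 3 reads over the control group (adjusted p by limma 0.0186). Zfp971 was at 0.997 to 31.9 in light with a median of 5.11, at least 19.5-fold higher by the same floor (adjusted p by limma 0.0186). They share sequence with other members, in 37.8% of the 50-base stretches of Zfp970 and 20.7% of those of Zfp971, so reads between copies may be divided. Zfp979 of the chromosome 4 cluster was at 23.1, 25.6, 2.32 and 15.0 in control and at 43.6 to 138 in light, without overlap (log2 difference 2.62 ± 0.50, adjusted p by limma 1.81e-03). Zfp978, of the same cluster, was at 33.3, 23.4, 36 and 35.0 in control and at 49.2 to 190 in light, again without overlap (log2 difference 1.63 ± 0.36, adjusted p by limma 5.45e-03). Zfp947 of the chromosome 17 cluster was called at a log2 difference of 2.78 ± 0.84 (adjusted p by limma 0.0354), which was not called by edgeR or without the filter.

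Of the members lower in light 8-cell embryos, Zfp664 was at 54.6, 137, 115 and 194 in control and at 15.9 to 62.1 in light, median 27.4. The ranges overlapped through control library 1, and the log2 difference of -1.81 ± 0.43 (SE, adjusted p by limma 8.72e-03) held in the 5 alternative tests run. Zfp957 was at 65.7, 46.3, 5.80 and 20.4 in control and at 0.496 to 22.9 in light (log2 difference -2.65 ± 0.83, adjusted p by limma 0.0443). Zfp609, which works with the cohesin loader Nipbl, was at 35.2, 132, 82.4 and 90.5 in control and 8.90 to 57.3 in light (log2 difference -1.53 ± 0.48, adjusted p by limma 0.0440). The calls of Zfp957 and Zfp609 were lost without 9 and without 8 of the 12 libraries left out in turn.

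Markers of lineage moved at this stage too. Of 7 inner cell mass genes tested, 2 were called higher in light 8-cell embryos (Pou5f1 and Tdgf1), as were 2 of 5 trophectoderm genes (Krt8 and Krt18), with sums of 217 to 342 in control and 151 to 1041 in light for the inner cell mass list. Of 3 primitive endoderm genes 1, Gata6, was higher, and of 6 transient 2-cell genes 1, Zfp352, was lower. The part of these in the members' result was not tested.

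In morulae none of 136 members was called by limma, against 1.18% of 15217 genes, and 17 members had an unadjusted p under 0.05. The share of all genes under that unadjusted p was not counted, so the 17 cannot be read as particular to the members. DESeq2 called 1 member and edgeR none, and limma called 1 without control library 14 or light library 9 and 2 without light library 1. The median difference of the members was 0.38 and that of all genes 0.10. A p that misses the threshold does not show that values were alike: in the simulation of this comparison 43% of genes changed 4-fold were recovered.

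In blastocysts 4 of 127 members were called, all lower in light (3.15%, against 5.34% of 12743 genes, 4.98% lower). None of the 4 was called with the other pseudocount, without the filter, with median ratio scaling or by edgeR. DESeq2 called 2 members, 1 of them higher, and leaving out 1 library gave 0 (control library 2) to 6 calls. The scale matters most here, since the median difference of all genes was -0.64 as deposited and -0.10 with median ratio scaling, and that of the members -0.89 and -0.36.

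Zfp936 and Zfp975 share the chromosome 7 cluster whose promoters are printed above. Zfp975 was at 33.1, 34.1 and 21.8 in control blastocysts and at 1.16 to 7.36 in light, median 3.57, without overlap (log2 difference -2.74 ± 0.71, adjusted p by limma 0.0275). Zfp936 was at 74.7 to 146 in the 3 control libraries and at 25.6 to 53.9 in light, median 33.3, also without overlap (log2 difference -1.57 ± 0.44, adjusted p by limma 0.0401). Of 5 alternative tests Zfp975 kept its call in 1 and Zfp936 in 0. Zfp655 was at 104, 139 and 109 in control and at 26.5 to 64.8 in light (log2 difference -1.53 ± 0.44, adjusted p by limma 0.0429). Zfp959, with 223 reads in all, was at 6.84, 12.5 and 8.35 in control and at 0 to 3.88 in light (log2 difference -2.69 ± 0.71, adjusted p by limma 0.0298). In all, 18 of the 127 members did not overlap between the groups (14.2%, against 12.5% of all genes).

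The blastocyst libraries differed in lineage markers as well. Of 7 inner cell mass genes tested, 6 were called lower in light, with sums of 289 to 1828 in the 3 control and 144 to 207 in the 6 light libraries, and Nanog was at 65.5 to 302 and 0.368 to 20.3. Of 5 primitive endoderm genes 2 were lower, Pdgfra and Lama1. None of 9 trophectoderm genes was called, with sums of 472 to 6914 and 2729 to 7042. In libraries from picked cells, a different mix of cell types and a different level per cell cannot be told apart, and the part of these markers in the members' result was not tested. Trim28 was lower in light blastocysts as well (226 to 604 in control, 108 to 228 in light). The whole list of KAP1 partners summed to 1994 to 2659 in control and 877 to 1329 in light blastocysts. On this scale the median of all genes was lower in light too.

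Members with roles of their own outside the called sets were followed too. Zfp638, which takes part in silencing of unintegrated retroviral DNA, and Zfp644, a partner of the G9a and GLP methyltransferases, were not called between light and control at any stage, with log2 differences of -0.76 to 0.41 for Zfp638 and -1.13 to 0.30 for Zfp644. Zfp809, the KRAB protein that silences murine leukaemia virus, was at 15.6 to 102 in control and 54.4 to 342 in light 2-cell embryos, and at 54.2, 61.9 and 70.6 in control and 0.368 to 54.7 in light blastocysts. Neither difference of Zfp809 was called, at log2 values of 1.07 ± 0.49 (adjusted p by limma 0.163) and -1.98 ± 0.82 (adjusted p by limma 0.150). Zfp687, a partner of Zmynd8, and Zfp746, known as PARIS, were called at no stage between light and control. Zfp706 was also called at no stage, with log2 differences between -1.05 and 1.30.

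The 2-cell to 4-cell transition, when maternal RNA is lost and the embryo's own genome takes over, moved more members than any light comparison. In control embryos 50 of 142 members tested were called, 8 higher and 42 lower at the 4-cell stage (35.2%, against 46.1% of 17725 genes, 13.8% higher and 32.3% lower). In light embryos 52 of 149 were called, 10 higher and 42 lower (34.9%, against 36.5% of 17258 genes, 7.43% higher and 29% lower). The median differences were -0.95 and -0.68 for the members, and -0.72 and -0.56 for all genes. KRAB members gave 2 higher and 23 lower of 75 in control, and those without KRAB 5 higher and 19 lower of 64. With median ratio scaling the light count was 12 higher and 30 lower, and with edgeR 13 and 25.

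Zfp957 fell most in control embryos, from 422 to 808 at the 2-cell stage to 0.852 to 7.51 at the 4-cell stage (log2 difference -6.76 ± 0.44, adjusted p by limma 2.50e-10). Zfp703 went from 83.4 to 183 down to 0 to 6.46 (log2 difference -6.13 ± 0.60, adjusted p by limma 5.34e-08), and Zfp750 from 30.3 to 143 down to 0 to 4.10 (-5.74 ± 0.63, adjusted p by limma 2.34e-07). For these 3 genes, and for Zfp709, no 4-cell library reached the lowest 2-cell library. The stages did not overlap for 18 of the 142 members in control and 14 of 149 in light, against 20.4% and 13% of all genes. In the other direction Zfp960 went from 0.793 to 15.7 up to 0 to 162 (log2 difference 3.07 ± 0.93, adjusted p by limma 0.0104), and Zfp820, a KRAB gene of the chromosome 17 cluster, from 7.83 to 108 up to 75.4 to 232 (2.29 ± 0.54, adjusted p by limma 1.55e-03). Zfp995 was at 0 in all 7 control 2-cell libraries and at 0 to 23.8 at the 4-cell stage.

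In light embryos Zfp677 fell most, from 27.2 to 113 at the 2-cell stage to 0 to 18.8 at the 4-cell stage (log2 difference -4.48 ± 0.70, adjusted p by limma 1.06e-05). Zfp703, Zfp735 and Zfp957 followed, at -4.18, -3.96 and -3.94. Zfp771, Zfp970 and Zfp935 rose, by 2.40 ± 0.59, 2.51 ± 0.73 and 2.33 ± 0.68 (adjusted p by limma 1.86e-03, 7.46e-03 and 7.02e-03). Of 137 members tested in both groups, 23 were lower at the 4-cell stage in both, which is 56.1% of the 41 lower in control and 59.0% of the 39 lower in light. The members higher in both were Zfp960 and Zfp974, and no member was called in opposite directions. Across these 137 members, which are not independent replicates, the differences of control and light had a Pearson r of 0.72.

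**Figure D4:**
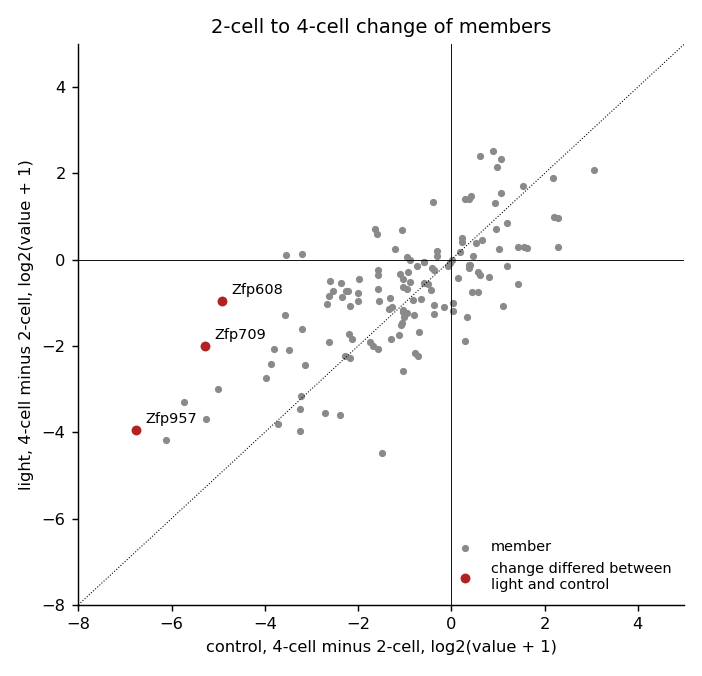
Difference between the 4-cell and 2-cell stages as log2 of value plus 1, in control (horizontal axis) and light (vertical axis), for the 137 members tested in both, with equal change on the dotted line. Most members lie at the lower left, and the members in red, Zfp608, Zfp709 and Zfp957, changed by different amounts in light and control. Of these, Zfp608 was already low in light 2-cell embryos and had little room to fall.

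Whether the change itself differed between light and control was tested by an interaction term. It was called for 4 of 157 members (2.55%, against 3.07% of 20395 genes, 1.63% higher and 1.45% lower). Zfp957 fell by 6.76 on the log2 scale in control and by 3.94 in light, a difference of 2.82 ± 0.59 (adjusted p by limma 9.21e-03). Zfp608 differed by 3.95 ± 0.88 (adjusted p by limma 0.0126) and Zfp709 by 3.28 ± 0.88 (adjusted p by limma 0.0317). At the 2-cell stage Zfp608 was already low in light, with a log2 difference to control of -3.28, and had little room to fall. Its term restates that 2-cell difference in large part. For Zfp709 most of the term is the 4-cell difference between light and control, 2.99 on the log2 scale. The call of that 4-cell difference was lost without most single libraries. The Zfp709 term was kept in 22 of 27 fits that left out a library. Zfp938, which was at 0 in every control 2-cell library, had a term of -2.74 ± 0.65 (adjusted p by limma 0.0179). It was too low in control to be tested there and could not fall from 0, so this term restates its 2-cell difference and adds no result. With control 4-cell libraries 1 and 2 left out together, all 4 were still called and the count was 7. The calls of Zfp608 and Zfp709 were lost with a pseudocount of 0.1 and that of Zfp938 with edgeR.

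From the 4-cell to the 8-cell stage, 4 of 118 members were called in control, 1 higher and 3 lower (3.39%, against 6.31% of 13425 genes, 1.14% higher and 5.17% lower), and 22 of 140 in light, all 22 lower (15.7%, against 10.6% of 15178 genes, 0.619% higher and 9.94% lower). Groups did not overlap for 6 of 118 members in control and 5 of 140 in light, against 6.79% and 2.2% of all genes. In simulated data of this step, 18.5% of genes changed 4-fold were recovered in control and 64% in light. The counts of control and light therefore cannot be set against each other. Both counts of calls depended on scale and libraries. In light, median ratio scaling left 3 and edgeR 1. In control, median ratio scaling gave 2, both higher, edgeR gave 1, and leaving out 4-cell libraries 1 and 2 gave 16. Without 4-cell library 4 or 5 the control count was 2, and without 4-cell library 6 or 8-cell library 3 it was 1. The median of the control members also changed sign, from -0.29 to 0.14 with median ratio scaling, while that of all genes went from -0.56 to 0.04. Zfp639 fell most in light, from 28.9 to 122 at the 4-cell stage to 0.997 to 24.4 at the 8-cell stage (log2 difference -2.80 ± 0.45, adjusted p by limma 1.48e-04), and was called under all of these tests. Zfp951 went from 51.0 to 210 down to 0.481 to 63.1 (-2.60 ± 0.56, adjusted p by limma 2.22e-03).

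From the 8-cell stage to the morula, 11 of 129 members were called in control, 2 higher and 9 lower (8.53%, against 14.3% of 14966 genes, 6.84% higher and 7.49% lower), and 15 of 130 in light, 3 higher and 12 lower (11.5%, against 11.8% of 14414 genes, 4.61% higher and 7.22% lower). Groups did not overlap for 4 of 129 members in control and 6 of 130 in light, against 5.02% and 3.57% of all genes. Without control 8-cell library 3 the control count was 7, and without light 8-cell library 5, 9 or 12 the light count was 9. With edgeR the control split was 3 higher and 6 lower. Simulated 4-fold changes of this step were recovered for 23% of genes in control and 52% in light. Zfp644 was at 196 to 369 in the 4 control 8-cell libraries and at 0 to 63.5 in the 13 morulae, without overlap (log2 difference -4.13 ± 0.92, adjusted p by limma 2.70e-03). In light it went from 62.8 to 342 down to 10.1 to 24.2 (-3.72 ± 0.35, adjusted p by limma 7.05e-08). Zfp622 fell in control from 426 to 796 down to 6.30 to 146 (-3.29 ± 0.57, adjusted p by limma 2.47e-04), and Zfp771 fell in both, by 3.63 ± 1.01 in control and 3.88 ± 0.61 in light (adjusted p by limma 0.0147 and 9.27e-05). Zfp985 of the chromosome 4 cluster rose in control, from 3.70, 6.39, 18.6 and 68.0 to 33.1 to 185 in morulae (2.62 ± 0.57, adjusted p by limma 2.12e-03).

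From the morula to the blastocyst, 9 of 133 members were called in control, 8 higher and 1 lower (6.77%, against 11.9% of 14972 genes, 6.75% higher and 5.11% lower), and 16 of 135 in light, all lower (11.9%, against 20.7% of 13553 genes, 5.02% higher and 15.7% lower). Groups did not overlap for 5 of 133 members in control and 9 of 135 in light, against 7.88% and 8.22% of all genes. Lineage markers moved at the same step: in light 8 of 9 trophectoderm genes were called higher and 4 of 6 inner cell mass genes lower, and in control 5 of 8 trophectoderm genes higher and none of 7 inner cell mass genes. Their part in the members' result was not tested. Without blastocyst library 2 or 3 the control count was 5. The light split was 8 higher and 8 lower with median ratio scaling and 7 and 8 with edgeR, and the median of the light members went from -0.26 to 0.17 and 0.28. In control, median ratio scaling gave 19 higher and 1 lower, and edgeR 1 and 1. Zfp935 rose in control from 0 to 4.57 in morulae to 12.6 to 48.2 in the 3 blastocyst libraries, without overlap (log2 difference 3.78 ± 0.79, adjusted p by limma 1.98e-03). Zfp706 fell in control, by 1.37 ± 0.35 (adjusted p by limma 0.0109), and in light, by 2.12 ± 0.33 (adjusted p by limma 2.30e-05).

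The chromosome 4 cluster of 17 members accounted for 5 of the 16 light members lower in blastocysts than in morulae. In light, 15.7% of all genes tested were called lower at this step. Zfp981 went from 20.6 to 106 in light morulae to 1.47 to 13.6 in blastocysts (log2 difference -3.34 ± 0.55, adjusted p by limma 4.48e-05), and Zfp600 from 32.7 to 55.7 down to 2.24 to 6.99 (-2.91 ± 0.50, adjusted p by limma 7.51e-05). All 5 calls, of Zfp600, Zfp978, Zfp979, Zfp980 and Zfp981, had ranges without overlap, and 8.22% of all genes tested in light had such ranges. In control embryos none of the 17 members of the cluster was called at this step. In simulated data of this step, 18% of genes changed 4-fold were recovered in control and 43% in light. A missing call in control therefore does not show that values were alike. The difference between the groups at this step was not tested. The summed value of the cluster was 415 ± 134 (SD, n = 13) in control and 459 ± 99.9 (n = 6) in light morulae. In blastocysts it was 334 ± 105 (n = 3) in control and 150 ± 58.1 (n = 6) in light, where the highest library, at 208, lay below the lowest control, at 229. In 2-cell embryos it was 827 ± 120 (n = 7) and 1229 ± 328 (n = 6), and these groups overlapped. The blastocyst gap was smaller on another scale: as CPM among the reads outside the 2 most abundant genes, the cluster took 527 ± 191 (n = 3) in control and 373 ± 80.7 (n = 6) in light, ranges that overlapped, and light blastocysts had 77.8% to 89.3% of their reads on those 2 genes against 73.8% to 81.0% in control. On this scale the 2-cell libraries did not overlap, at 552 to 708 in control and 767 to 1284 in light.

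**Figure D5:**
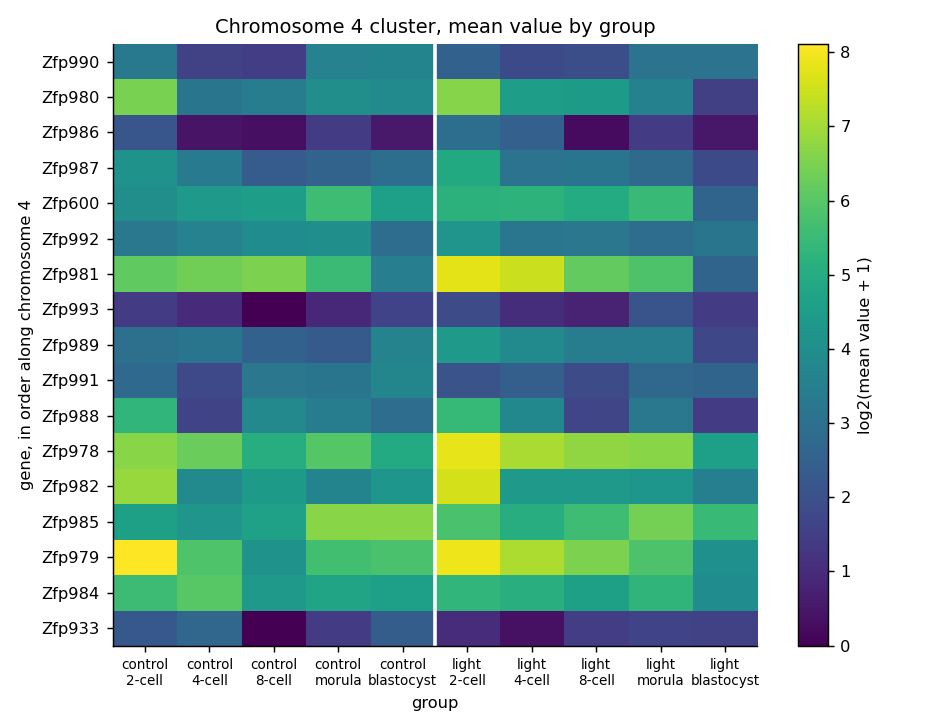
Mean value of the 17 members of the chromosome 4 cluster in each group, as log2 of the mean plus 1 (colour), with genes in order along the chromosome (rows) and control and light groups by stage (columns). Zfp979 was highest at the 2-cell stage and Zfp985 in control morulae and blastocysts, and Zfp986, Zfp993 and Zfp933 stayed low in all groups.

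In control embryos the direction from the 2-cell stage to the morula differed between Zfp979 and Zfp985 of the cluster. The values are not divided by length, so levels of the genes are not compared with each other. Zfp979 was at 276 ± 86.3 (SD, n = 7) in control 2-cell embryos and at 49.4 ± 35.3 (n = 13) in control morulae. Zfp985, whose promoter shares 81.2% with that of Zfp979, was at 23.6 ± 18.0 (n = 7) and 101 ± 48.7 (n = 13) in the same groups. In the comparison of light with control, 1 of 17 members was called at the 2-cell stage (Zfp978), 2 of 14 at the 8-cell stage (Zfp978 and Zfp979) and none at the other stages.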

How the data were processed

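RNA of 67 embryo libraries was sequenced after SMART-seq2. Per the labels, reads were mapped with HISAT2 to mm9 and counted with HTSeq 0.9.1. The authors deposited a signal for each gene, the read number scaled by each library's size factor; the study's methods speak of RPKM, but no length division was found. Multiplication by the size factor gave whole reads, within 0.01, for at least 99.95% of values in each library. Members were placed by symbol on GENCODE M21 (GRCm38); 26329 of 26414 symbols (99.7%) matched. No coordinates were converted. Promoters came from RefSeq (GRCm38.p6).

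Values were tested with limma 3.58.1 (trend) in R 4.3.3 as log2 of the value plus 1, for genes above 1 in at least 3 libraries compared, with Benjamini-Hochberg adjustment. The design had been written without knowing the unit. A fold on this scale understates changes of low genes. Each library was 1 replicate. Alternatives were a pseudocount of 0.1, no filter, median ratio scaling, edgeR 4.0.16 (quasi-likelihood) and DESeq2 1.42.0 on the recovered reads, the label number as a block, and leaving out each library. The test was tried on simulated counts, with 200 genes changed 4-fold. Of these, 37%, 45%, 40.5%, 43% and 9% were recovered in the 5 light comparisons. The steps between stages gave 30%, 18.5%, 23% and 18% in control and 48%, 64%, 52% and 43% in light. The interaction gave 11%. None was called in the wrong direction. Reads outside Gm42418 and CT010467.1 were thinned to 318181 per library for the alternative count of members detected.

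The members and the lists (KAP1 partners, oocyte, transient 2-cell, trophectoderm, inner cell mass, primitive endoderm, cumulus and sperm genes) were chosen with earlier results of these data known. Genes named were the 4 largest rises and falls among called members of a comparison, the 3 highest per kilobase in each control stage, and members of known role, without those under 300 reads unless called; others are said to be named after their values were seen. Fingers and KRAB boxes were counted by pattern in translated GENCODE coding sequences with Biopython 1.88. The KRAB pattern first written matched 0 members and was widened after that was seen. The floors of 3 reads cover counting error only, while SD and SE measure the spread between libraries. Python 3.11.15 with numpy 2.4.6, pandas 2.3.3, scipy 1.17.1 and matplotlib 3.10.9 was used.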

Additional observations from a re-analysis of the deposited data

Results flagged for a closer look

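The change from the 2-cell to the 4-cell stage differed between light and control, by the interaction term of limma, for Zfp608 (3.95 on the log2 scale, light minus control), Zfp709 (3.28), Zfp957 (2.82) and Zfp938 (-2.74). Zfp938 was at 0 in all control 2-cell libraries, so that its term restates the 2-cell difference. Zfp608 was already low in light 2-cell embryos, so its term restates the 2-cell difference in large part. Most of the Zfp709 term is its 4-cell difference between light and control, 2.99 on the log2 scale.

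In 64 groups of 4 to 10 values, 5 had a lowest or highest library far from the others, where chance flags about 1 in 20. Zfp704 was at 13.3 in light 2-cell library 10. Zfp771 was at 11.6 in light 4-cell library 6, the lowest of its group and still above every control. Zfp709 was at 0 in light 4-cell library 13. Zfp932 was at 11.1 in control 8-cell library 1, while the other 3 were at 0. Members took 5043 CPM of the reads outside the 2 most abundant genes in control 4-cell library 3, against 3259 to 3795 in the other 5 control libraries.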

How the results depend on the processing

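Of 72 calls of named members, 42 were kept under every alternative test without the replicate block, 48 without any 1 library and 40 under both; none of 1396 alternative values was reversed, and 279 no longer passed the threshold. Of 280 alternative counts of calls, 219 were within 1.5 times the main count. The cause of the other changes was not tested. With a pseudocount of 0.1 the light comparisons gave 1 call at the 4-cell stage and 0 in blastocysts, and the interaction 2. Without the filter they gave 1 (4-cell), 7 (8-cell) and 0 (blastocyst), the control step from 4-cell to 8-cell 2 and the light step to the morula 9. Median ratio scaling gave 5 at the 4-cell stage, 1 in morulae, 0 in blastocysts, 2 and 20 for the control steps to the 8-cell stage and the blastocyst, 3 for the light step to the 8-cell stage and 7 for the interaction. EdgeR gave 7 at the 8-cell stage, 0 in blastocysts, 1 and 2 for the same control steps and 1 for the same light step. DESeq2 gave 7 at the 4-cell stage, 1 in morulae and 2 in blastocysts. Leaving out control 4-cell libraries 1 and 2 together, chosen after seeing the data, gave 16 for the control step to the 8-cell stage and 7 for the interaction.

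Numbers in the labels did not pair libraries: correlations of same-numbered deviations were -0.09 to 0.07, with 0 pairs over 0.1, and at the control step to the 8-cell stage 3 libraries correlated best with their own number. With the replicate block, calls numbered 0 at the 2-cell and 4-cell stages and in morulae, 0 for the control steps to the 8-cell stage, morula and blastocyst, 0 for the light step to the 4-cell stage, 4 for that to the 8-cell stage and 2 for that to the morula. No paired analysis was possible for light against control in 8-cell embryos and blastocysts, the control step to the 4-cell stage and the light step to the blastocyst because the groups share fewer than 2 numbers; it was not run for the interaction.

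Leaving out each library in turn gave, for light against control, 11 to 21 calls (2-cell), 1 to 4 (4-cell), 7 to 13 (8-cell), 0 to 2 (morula) and 0 to 6 (blastocyst). The control steps gave 44 to 48, 1 to 6, 7 to 12 and 5 to 12, the light steps 41 to 53, 20 to 26, 9 to 13 and 11 to 21, and the interaction 3 to 6. With 1554 to 20767 member reads per library, single low members are measured with few reads.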
